A study of Oryza sativa with 12 samples.

Results

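Alpha-amylases cut the long glucose chains of starch at internal bonds, and in cereals they are best known from germinating grain, where they turn stored starch into sugar for the seedling. The rice enzymes come from a family of closely related genes, many of them in tandem clusters. In rice, the RAmy3 genes are known to be switched on when cells run short of sugar, through the kinase SnRK1A and the MYB factor MYBS1, while RAmy1A answers to gibberellin in the grain. The 4 genes described here are RAmy3D (Os08g0473900), RAmy3A (Os09g0457400), RAmy3E (Os08g0473600) and RAmy1A (Os02g0765600). They are 4 of the 17 genes whose deposited domain description contains Alpha amylase, and of 40674 genes listed in all. They were picked by identifier with read counts of these libraries known, and the selection names no threshold and no contrast. Their levels, differences and intervals are therefore a description and carry no p-value. Common names were assigned by identifier from general knowledge and kept where they fit the deposited domain description.

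RNA was sequenced from bulk aerial organs, taken from rice seedlings aged 12 days, of a pair of near-isogenic lines, with 3 libraries per group. The groups are NIL-TT2HPS32 (HPS32 below) at 42.5 °C for 20 h, NIL-TT2HJX (HJX below) at 42.5 °C for 20 h, HPS32 at 28 °C and HJX at 28 °C. HPS32 is labelled as having lost the function of TT2 and HJX as wild type. TT2 is the G protein gamma subunit gene also called GS3. All plants had been grown at 28 °C, and nothing in the labels says whether a library is a separate plant or a pool, so the p-values below measure only the spread between the libraries as deposited. Each line stands for its own genetic background around TT2 as well as for the allele.

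The libraries held 14785975 to 17871972 reads assigned to genes, and 25473 genes passed the filter on low counts. Levels are CPM, read counts scaled to a common library size, with the library size scaled by the trimmed mean of M-values (TMM), and TMM factors were 1.06 to 1.28 under heat and 0.843 to 0.890 at 28 °C. The 6 shoot markers (Rubisco small subunit, Rubisco activase and light-harvesting genes) were read in every group, with summed levels of 1579 to 1945 CPM in HPS32 and 804 to 1092 CPM in HJX under heat, against 35561 to 36199 CPM in HPS32 and 31834 to 41017 CPM in HJX at 28 °C. The 9 seed reserve markers summed to 14.3 to 17.96 CPM in HPS32 and 20.5 to 27.5 CPM in HJX under heat, and to 4.86 to 6.98 CPM in HPS32 and 4.08 to 6.36 CPM in HJX at 28 °C. Of these 9, the glutelin-type cupins Os02g0249900, Os02g0268300 and Os02g0249800 and the gliadin-type gene Os05g0329100 had no read in any of the 12 libraries. The cupin genes Os01g0762500 and Os10g0400200 were read in every library. Under heat they had 58 to 68 and 211 to 271 reads in HPS32, and 157 to 202 and 175 to 213 in HJX. At 28 °C they had 13 to 36 and 33 to 56 reads. Os03g0427300, Os05g0499100 and Os07g0214300 had at most 28 reads in any library. Both root markers together stayed at or below 13.5 CPM. The part of these shifts in the results below was not tested.

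RAmy3D was the dominant alpha-amylase of heated seedlings in both lines. The gene lies on chromosome 8 (23341289 to 23343299, plus strand, coordinates of the deposited table). It had 4389, 4109 and 3696 reads in the HPS32 heat libraries and 24922, 24632 and 23776 reads in the HJX heat libraries. At 28 °C it had 5, 9 and 7 reads in HPS32 and 18, 9 and 6 reads in HJX. Every heat library lay above every 28 °C library, and every HJX heat library lay above every HPS32 heat library, while the lines overlapped at 28 °C.

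As levels, RAmy3D averaged 212 ± 18.5 CPM in HPS32 under heat and 0.500 ± 0.137 CPM in HPS32 at 28 °C (SD, n = 3 each). In HJX it averaged 1425 ± 156 CPM under heat and 0.777 ± 0.468 CPM at 28 °C. The fitted difference of heat over 28 °C was 8.70 ± 0.21 on the log2 scale in HPS32 (SE, 95% interval 8.25 to 9.15) and 10.84 ± 0.21 in HJX (10.40 to 11.27). In the order of fitted changes among the 25473 tested genes, RAmy3D stood 21st from the top in HPS32 and 3rd in HJX. In bulk organs, a change in the number of expressing cells and a change in RNA per cell cannot be told apart.

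Set against each other under heat, HPS32 had 6.73-fold less RAmy3D than HJX (log2 -2.75 ± 0.13, 95% interval -3.02 to -2.49). At 28 °C, where the lines overlapped, the difference of HPS32 minus HJX was -0.61 ± 0.41 on the log2 scale (95% interval -1.48 to 0.25). Without HJX replicate 1, the library with 18 reads, it was -0.037, and omission of any single library gave -0.88 to -0.037. The difference between the 2 heat responses, HPS32 minus HJX, was -2.14 ± 0.46. It rests on the few reads at 28 °C, and without HJX replicate 1 it was -2.71.

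Seen as a share of all reads, RAmy3D took 0.0287%, 0.0278% and 0.0240% of the HPS32 heat libraries and 0.157%, 0.162% and 0.134% of the HJX heat libraries. Exact binomial 95% intervals, which cover counting error only, were narrow: 0.0279% to 0.0296% in the first HPS32 heat library and 0.155% to 0.159% in the first HJX heat library. By read count the gene ranked 345, 362 and 469 among all listed genes in the HPS32 heat libraries and 32, 29 and 35 in the HJX heat libraries. At 28 °C it ranked 23177 to 24530 in HPS32 and 21323 to 24164 in HJX.

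**Figure D1:**
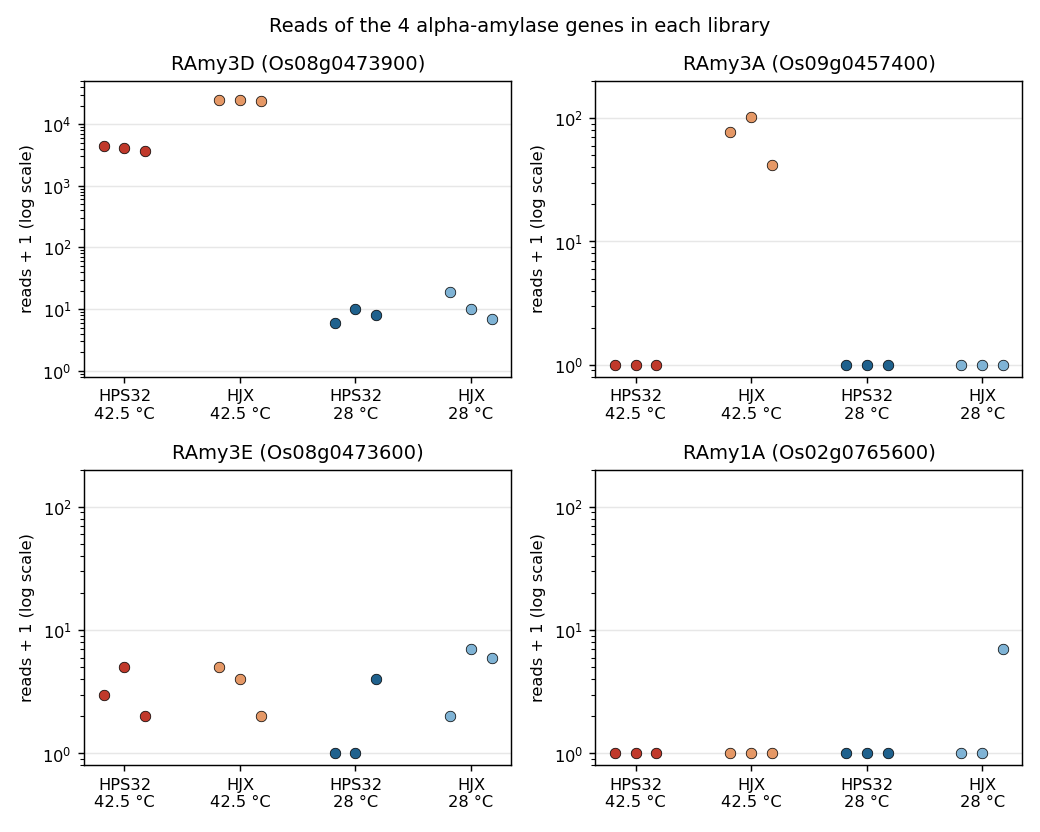
Reads plus 1 (log axis) of each of the 4 genes in each library, with 1 point per library and 3 libraries per group. RAmy3D has 3696 to 4389 reads in HPS32 and 23776 to 24922 in HJX under heat, RAmy3A has reads only in HJX under heat, and RAmy3E and RAmy1A stay at or below 6 reads in every library.

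RAmy3A was read in a single group. It lies on chromosome 9 (17288993 to 17291252, plus strand), and it had 0 reads in all 3 HPS32 heat libraries and 76, 101 and 41 reads in the HJX heat libraries. All 3 HPS32 libraries and all 3 HJX libraries at 28 °C also had 0 reads. The level in HJX under heat was 4.33 ± 2.08 CPM (SD, n = 3), and the third of these libraries was the lowest at 2.15 CPM.

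A count of 0 allows up to 3 reads in a library, which is 0.154 to 0.220 CPM here. The mean level of RAmy3A in HJX under heat was 27.7-fold above that floor, taken per library, in HPS32 under heat. It was 20.6-fold above the floor in HJX at 28 °C. These folds are bounds with respect to the 0 counts only, and the spread of the 3 HJX heat libraries is not part of them. No fold was formed in HPS32, where both temperatures were at 0.

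Few genes had reads in a single heat group and none elsewhere, a rule that leaves out genes with any reads in the other groups. In HPS32, 37 genes had at least 10 reads in every heat library and no read in any of the 6 libraries at 28 °C, and 0 of them were unread in the HJX heat libraries. In HJX there were 58 such genes, and 2 of them were also unread in the HPS32 heat libraries. These 2 are RAmy3A and Os03g0388600, a gene with a Myb-like DNA-binding domain on chromosome 3 (15512510 to 15514115), the chromosome that carries TT2. Os03g0388600 had 14, 28 and 15 reads in the HJX heat libraries. It was named after its values were seen.

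RAmy3E, a close neighbour of RAmy3D, stayed near the detection limit throughout. It lies 4212 bp from RAmy3D on the same strand of chromosome 8 (23335167 to 23337076). It had 2, 4 and 1 reads in the HPS32 heat libraries and 4, 3 and 1 in the HJX heat libraries, against 0, 0 and 3 in HPS32 and 1, 6 and 5 in HJX at 28 °C. The groups overlapped.

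Summed over 3 libraries, RAmy3E had 7 reads in HPS32 under heat (exact Poisson 95% interval 2.81 to 14.4) and 8 in HJX under heat (3.45 to 15.8). At 28 °C the sums were 3 reads in HPS32 (0.619 to 8.77) and 12 in HJX (6.201 to 20.96). The gene did not pass the filter on low counts, so differences between groups were not tested. Heat libraries with at least 3696 reads of RAmy3D thus held at most 4 of its neighbour.

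RAmy1A, the gibberellin-responsive gene of the grain, was read in a single library. It lies on chromosome 2 (32248329 to 32250174, minus strand), and its only 6 reads (exact Poisson 95% interval 2.20 to 13.1) were in HJX replicate 3 at 28 °C. Its neighbour Os02g0765400, another alpha-amylase gene 3320 bp away, had 11 of its 15 reads in that library. With RAmy1A counted, HJX replicate 3 held 18 genes with at least 5 reads that were unread in the other 5 libraries at 28 °C. Each of those 5 held 1 to 8 such genes. Also among the 18 was the papain-type protease gene Os01g0907600, with 37 reads, named after its values were seen. Whether these reads share a source was not tested.

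**Figure D2:**
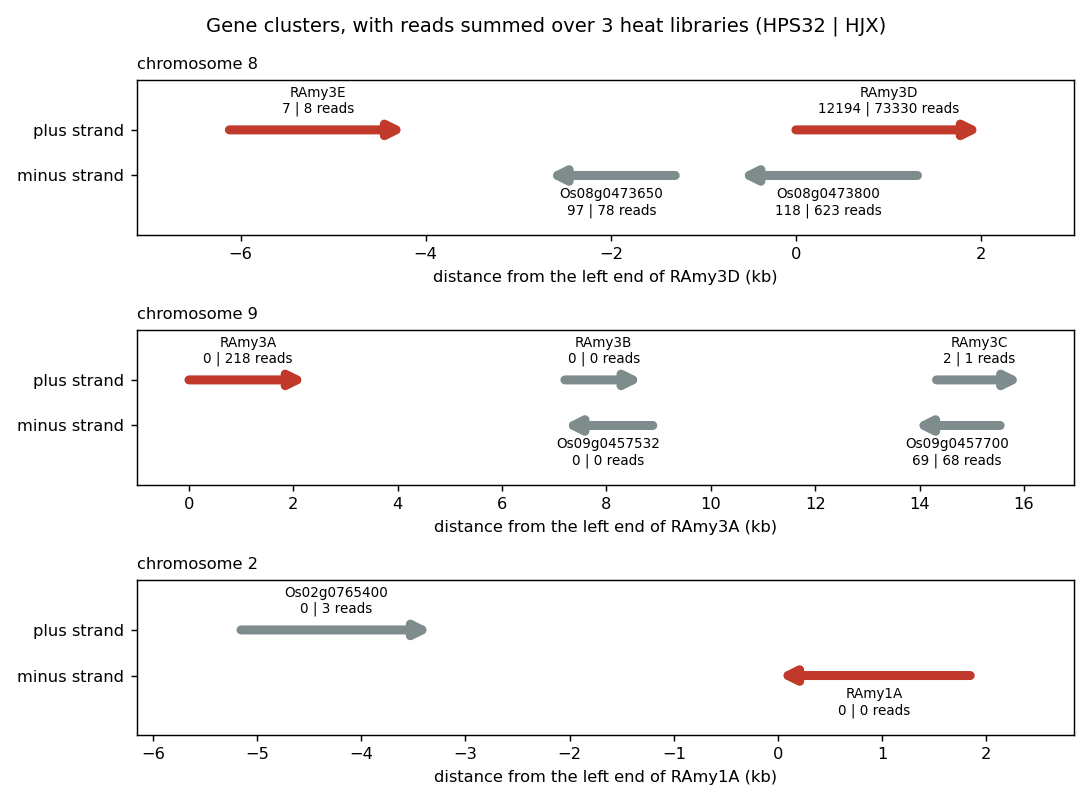
Positions of the alpha-amylase rows around the 4 genes (red) on chromosomes 8, 9 and 2, as distance in kb along the deposited coordinates, with arrows for strand and reads summed over the 3 heat libraries of HPS32 and of HJX. RAmy3D carries 12194 and 73330 reads while RAmy3E beside it carries 7 and 8, and RAmy3A carries 0 and 218 while RAmy3B carries 0 and 0. RAmy3B lies within a row on the other strand, and how reads in such overlaps were counted is not known.

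Within the gene clusters, counted reads differed between neighbouring rows. On the strand opposite RAmy3D, the row Os08g0473800 overlaps it by 1315 bp. Its reads amounted to 0.866%, 0.608% and 1.49% of those of RAmy3D in the HPS32 heat libraries and to 0.770%, 0.812% and 0.972% in the HJX heat libraries. With 118 reads in HPS32 and 623 in HJX under heat, it moved with RAmy3D, and as no source says that strands were kept apart, the reads of this pair cannot be separated. Between RAmy3E and RAmy3D lies Os08g0473650, which has no domain description and was named after its values were seen. It had 31, 38 and 28 reads in the HPS32 heat libraries and 21, 26 and 31 in the HJX heat libraries, so here the lines overlapped, and it had none at 28 °C.

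In the chromosome 9 cluster, RAmy3B (Os09g0457600) and its opposite-strand partner Os09g0457532 had no counted read in any library. RAmy3B lies wholly within that partner, with an overlap of 1492 bp. RAmy3C (Os09g0457800) had 2 reads in HPS32 and 1 in HJX under heat and none at 28 °C. Os09g0457700, which overlaps RAmy3C by 1220 bp on the other strand, had 39, 15 and 15 reads in the HPS32 heat libraries and 25, 24 and 19 in the HJX heat libraries, against 1 in all for each line at 28 °C. Both lines thus had reads there under heat, and RAmy3A was the gene of this cluster with counted reads in HJX alone. As for RAmy3D, no source says that strands were kept apart. How reads in such overlaps were counted is not known, so the counts of RAmy3B and RAmy3C may not reflect their levels. Members of such families can share reads, and how multiply mapping reads were counted is not given in the sources used here.

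Of the 17 rows of the family, 13 lack the CBM48 domain that marks branching and debranching enzymes, and 6 of these 13 passed the filter on low counts. RAmy2A (Os06g0713800) and Os01g0715400, neither of which is among the 4 genes, had at least 97 reads in every library. On a scale per length (CPM per kb of the deposited gene length), Os01g0715400 was at 14.2 to 15.4 in HPS32 and 18.2 to 19.0 in HJX under heat, and at 5.47 to 6.47 in HPS32 and 4.66 to 5.29 in HJX at 28 °C. RAmy2A averaged 3.73 in HPS32 and 4.08 in HJX under heat, and 5.95 in HPS32 and 5.01 in HJX at 28 °C.

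The order of the 13 rows without a CBM48 domain by CPM per kb turned over with heat. Under heat RAmy3D led in both lines, at 100.9 to 119 CPM per kb in HPS32 and 661 to 814 CPM per kb in HJX, with Os01g0715400 next and no overlap between the ranges. At 28 °C Os01g0715400 and RAmy2A led with overlapping ranges, and RAmy3D followed at 0.194 to 0.340 CPM per kb in HPS32 and 0.230 to 0.695 CPM per kb in HJX. Of the reads of the 13 rows, RAmy3D held 66.7% to 71.0% in HPS32 and 91.0% to 92.1% in HJX under heat, against 0.894% to 1.47% in HPS32 and 1.05% to 3.79% in HJX at 28 °C. RAmy3A came next after RAmy2A in HJX under heat at 1.32 to 3.85 CPM per kb, and their ranges overlapped.

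**Figure D3:**
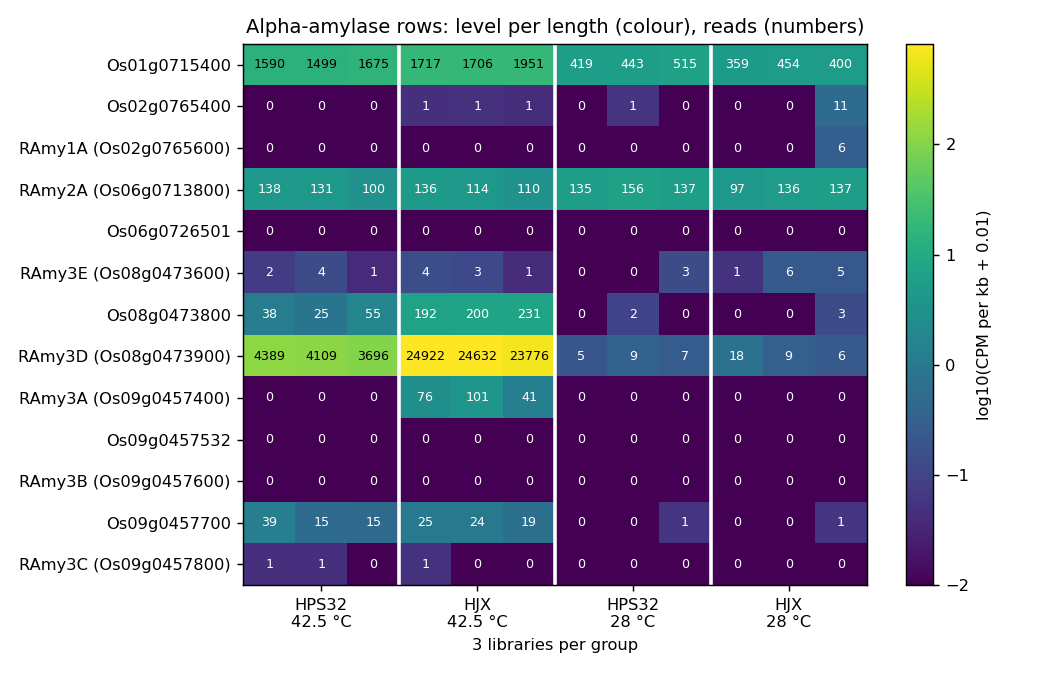
CPM per kb (colour, log10 of the value + 0.01) and reads (numbers) of the 13 alpha-amylase rows without a CBM48 domain in the 12 libraries. RAmy3D is the brightest row in all 6 heat libraries, while Os01g0715400 and RAmy2A are the brightest in all 6 libraries at 28 °C.

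Tests were run on the family genes outside the 4 that passed the filter on low counts. Os08g0473800 changed under heat by 5.21 ± 0.68 in HPS32 and 7.27 ± 0.51 in HJX (log2). No p-value is given for it, as its reads cannot be separated from those of RAmy3D. Os09g0457700, with 1 read per line at 28 °C, rose by 5.25 ± 0.88 and 5.42 ± 0.87 (edgeR adjusted p = 2.67e-05 and 1.35e-05). Under heat its lines differed by -0.15 ± 0.44 (edgeR adjusted p = 0.808). Os01g0715400 rose under heat by 1.33 ± 0.08 in HPS32 and by 1.88 ± 0.08 in HJX on the log2 scale (edgeR adjusted p = 9.99e-12 and 4.39e-14). The rise was smaller in HPS32, by -0.55 ± 0.11 (adjusted p = 0.000823), but under total-count scaling this difference was -0.28 with an adjusted p of 0.0581. RAmy2A fell in HPS32 by 0.67 ± 0.17 (adjusted p = 0.00198), a call that was lost under total-count scaling (adjusted p = 0.581), and was at -0.30 ± 0.18 in HJX (adjusted p = 0.127, and 0.0444 without HJX replicate 1 at 28 °C). Its responses in the lines did not differ past the threshold (-0.37 ± 0.25, 95% interval -0.89 to 0.15, adjusted p = 0.284).

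All 4 rows with a CBM48 domain were tested, and they make or trim the branches of starch. The isoamylase ISA1 (Os08g0520900), a debranching enzyme, rose by 1.94 ± 0.18 in HPS32 and by 1.00 ± 0.18 in HJX (edgeR adjusted p = 9.33e-09 and 5.42e-05), with a larger rise in HPS32 (difference 0.94 ± 0.25, adjusted p = 0.00861). The branching-type gene Os06g0367100 was lower by 0.50 ± 0.11 in HPS32, which turned to 0.06 under total-count scaling, and fell by 1.52 ± 0.12 in HJX (difference 1.01 ± 0.16, adjusted p = 0.000131). The branching enzyme BEIIb (Os02g0528200) was at 0.52 ± 0.36 in HPS32 (adjusted p = 0.205) and rose by 1.09 ± 0.34 in HJX (adjusted p = 0.00736), and BEI (Os06g0726400) was at 0.03 ± 0.06 in HPS32 (adjusted p = 0.705) and rose by 0.21 ± 0.06 in HJX (adjusted p = 0.00447). Under total-count scaling both were called in HPS32 as well, BEIIb at 1.08 (adjusted p = 0.00878) and BEI at 0.59 (adjusted p = 4.91e-08).

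Among sugar and gibberellin regulators of alpha-amylase, 3 kinase genes, of which 2 were named after their values were seen, rose in HJX by more than they changed in HPS32. CIPK15 (Os11g0113700) encodes a calcineurin B-like interacting kinase known in rice to act on SnRK1A under oxygen shortage, and it is among those 2. It had 13430, 13213 and 13058 reads in the HPS32 heat libraries and 43378, 38717 and 49218 in the HJX heat libraries, against 2746 to 3694 in HPS32 and 2484 to 3236 in HJX at 28 °C. All heat libraries lay above all 28 °C libraries, and the lines overlapped at 28 °C but not under heat.

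CIPK15 averaged 689 ± 15.6 CPM in HPS32 and 2530 ± 99.4 CPM in HJX under heat, and 224 ± 31.4 CPM in HPS32 and 208 ± 26.5 CPM in HJX at 28 °C (SD, n = 3 each). It rose by 1.62 ± 0.10 in HPS32 and by 3.61 ± 0.11 in HJX (log2, edgeR adjusted p = 5.09e-11 and 5.99e-16). Under heat it was lower in HPS32 by -1.88 ± 0.10 (adjusted p = 4.78e-11), and the responses differed by -1.99 ± 0.15 (adjusted p = 9.97e-09).

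The SnRK1-type kinase genes OSK3 (Os03g0289100) and OSK4 (Os08g0484600) also rose in HJX, and as similar copies they may share reads. OSK3 averaged 19.6 ± 1.04 CPM in HPS32 and 107 ± 3.54 CPM in HJX under heat, and 8.45 ± 0.203 CPM in HPS32 and 7.45 ± 1.14 CPM in HJX at 28 °C. It rose by 1.22 ± 0.10 in HPS32 and by 3.84 ± 0.10 in HJX (edgeR adjusted p = 1.96e-09 and 7.21e-17), which differ by -2.62 ± 0.14 (adjusted p = 3.90e-10). OSK4, the other of those 2, was at -0.10 ± 0.13 in HPS32 (adjusted p = 0.501, and 0.46 with an adjusted p of 0.00532 under total-count scaling) and rose by 1.46 ± 0.13 in HJX (adjusted p = 3.92e-09).

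SnRK1A itself (Os05g0530500) did not rise in either line. It fell by 0.62 ± 0.20 in HPS32 (edgeR adjusted p = 0.0099) and was at -0.49 ± 0.20 in HJX (adjusted p = 0.0312), and under total-count scaling both calls were lost (adjusted p = 0.807 and 0.392). The call in HJX was also lost without HJX replicate 1 (0.104), HJX replicate 2 (0.0929) or HJX heat library 2 (0.114), and with no filter on low counts (0.0508). MYBS1 (Os01g0524500), which activates RAmy3D in sugar-starved rice cells, fell by 1.17 ± 0.09 in HPS32 and by 0.57 ± 0.09 in HJX (adjusted p = 5.17e-10 and 7.21e-06). MYBS3 (Os10g0561400), a repressor of the same promoter, fell by 0.96 ± 0.07 in HPS32 (adjusted p = 3.31e-10) and was at 0.01 ± 0.07 in HJX (adjusted p = 0.852, and 0.31 with an adjusted p of 0.000265 under total-count scaling). With TMM scaling all 3 thus fell in HPS32, and SnRK1A and MYBS1 were also called lower in HJX, the calls of SnRK1A depending on the settings above. The part of these 3 genes in the levels of RAmy3D was not tested.

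**Figure D4:**
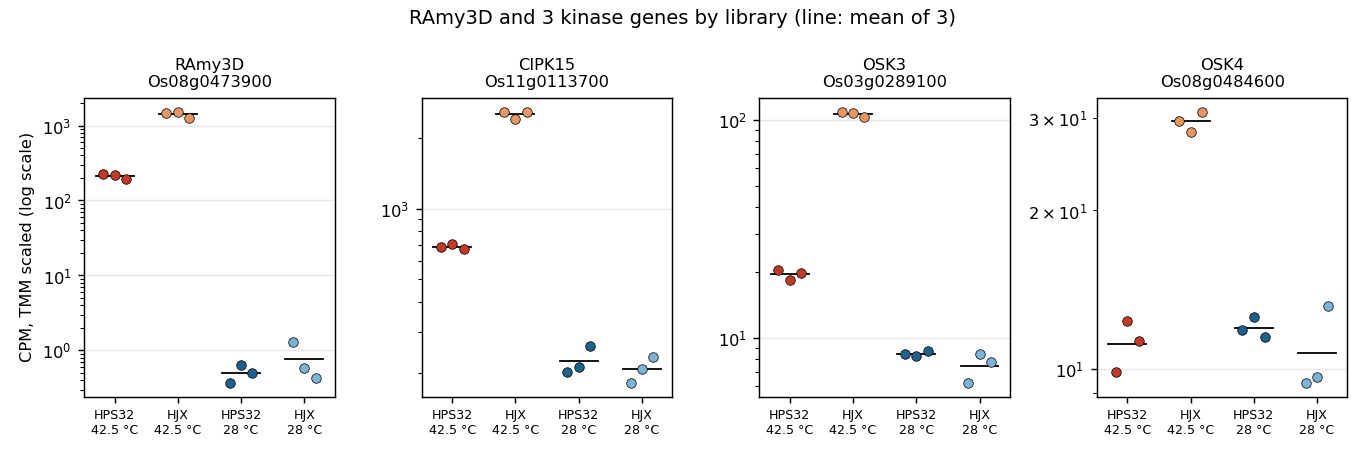
CPM with TMM scaling (log axis) of RAmy3D and of the kinase genes CIPK15, OSK3 and OSK4 in each library, with a line at the mean of 3 libraries. Under heat the means in HPS32 and HJX are 212 and 1425 CPM for RAmy3D, 689 and 2530 CPM for CIPK15, 19.6 and 107 CPM for OSK3 and 11.1 and 29.5 CPM for OSK4.

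On the gibberellin side, GA20ox2 (Os01g0883800), an enzyme of gibberellin synthesis, rose by 2.05 ± 0.25 in HPS32 and by 2.98 ± 0.26 in HJX (edgeR adjusted p = 6.13e-07 and 4.08e-09). GAMYB (Os01g0812000), the factor that activates alpha-amylase genes in the grain, rose by 1.23 ± 0.29 in HPS32 and by 1.67 ± 0.28 in HJX (adjusted p = 0.00086 and 2.03e-05). The hexokinase HXK6 (Os01g0742500), a glucose sensor, fell by 0.86 ± 0.08 in HPS32 and by 1.28 ± 0.08 in HJX (adjusted p = 1.41e-08 and 3.56e-11). GA3ox2 (Os01g0177400), the last step of gibberellin synthesis, was higher in HPS32 than in HJX under heat by 0.70 ± 0.28 (adjusted p = 0.0490). Omitting any of 7 libraries raised that p to between 0.0502 and 0.228, namely each of the 3 HPS32 heat libraries, HJX heat library 2 or 3, or replicate 2 of either line at 28 °C.

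Of the 14 tested regulators, 6 rose and 5 fell in HPS32, and 8 rose and 5 fell in HJX. Across all tested genes 34% rose and 36.4% fell in HPS32, and 38.1% rose and 36.8% fell in HJX. The median log2 change was -0.05 in HPS32 and 0.68 in HJX, against -0.03 and 0.03 for all tested genes. Under heat 3 regulators were higher and 7 lower in HPS32 than in HJX (median -0.53), against 21.6% and 23.6% of all genes (median 0.03). The interaction was positive for 2 regulators and negative for 7 (edgeR adjusted p under 0.05), against 13.3% and 16% of all tested genes. The 5 falls became 3 under total-count scaling in each line, and in HJX they became 3 without HJX replicate 1 at 28 °C. Over all settings tried, the rises ran from 6 to 9 in HPS32 and from 8 to 9 in HJX.

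Genes listed under starch breakdown other than alpha-amylase changed in both directions. The list counts the isoamylases ISA1 and ISA2, debranching enzymes that trim the branches of starch, and both are among its rises in each line. Of 17 tested, 4 rose and 10 fell in HPS32 (median -0.79), and 6 rose and 8 fell in HJX (median -0.45). Of all tested genes, 34% rose and 36.4% fell in HPS32 (median -0.03), and 38.1% rose and 36.8% fell in HJX (median 0.03). Beta-amylases release maltose from chain ends, and the gene Os03g0351300 rose by 0.53 ± 0.12 in HPS32 and by 1.53 ± 0.13 in HJX (edgeR adjusted p = 0.00141 and 3.36e-08), with a lower level in HPS32 under heat (-1.19 ± 0.12, adjusted p = 2.22e-06). Another beta-amylase, Os07g0543300, changed by -4.54 ± 0.30 in HPS32 and by -4.71 ± 0.32 in HJX (adjusted p = 1.95e-09 and 1.82e-09). The isoamylase ISA2 (Os05g0393700) rose by 2.12 ± 0.17 in HPS32 and by 1.39 ± 0.16 in HJX (adjusted p = 1.52e-09 and 2.71e-07). Under total-count scaling the counts in HPS32 turned to 8 higher and 6 lower.

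Between the lines under heat, 4 of the 17 were higher and 6 lower in HPS32 (median -0.11), against 21.6% and 23.6% of all tested genes, and 7 did not pass the test. Under total-count scaling 7 were higher and 4 lower. The alpha-glucosidase Os06g0675700, which frees glucose from short chains, was higher in HPS32 by 0.95 ± 0.15 (edgeR adjusted p = 0.00011). Of the 17 tested starch synthesis genes, 6 rose and 8 fell in HPS32 (median -0.11), and 8 rose and 8 fell in HJX (median 0.02). The shares of all tested genes were 34% and 36.4% in HPS32 and 38.1% and 36.8% in HJX, and under total-count scaling the counts in HPS32 turned to 10 higher and 6 lower. The branching enzyme BEIIa (Os04g0409200) fell by 2.66 ± 0.13 in HPS32 and by 3.42 ± 0.14 in HJX (adjusted p = 5.98e-11 and 4.17e-12), and AGPS1 (Os09g0298200), a subunit of the enzyme that makes ADP-glucose, rose by 1.08 ± 0.12 in HPS32 (adjusted p = 1.91e-07). The starch synthase SSIVa (Os01g0720600) was lower in HPS32 than in HJX under heat by -1.07 ± 0.09 (adjusted p = 3.22e-08), while 8 of the 17 synthesis genes were higher and 3 lower, against 21.6% and 23.6% of all tested genes. With limma-voom, and with the compared groups alone, 5 were lower.

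**Figure D5:**
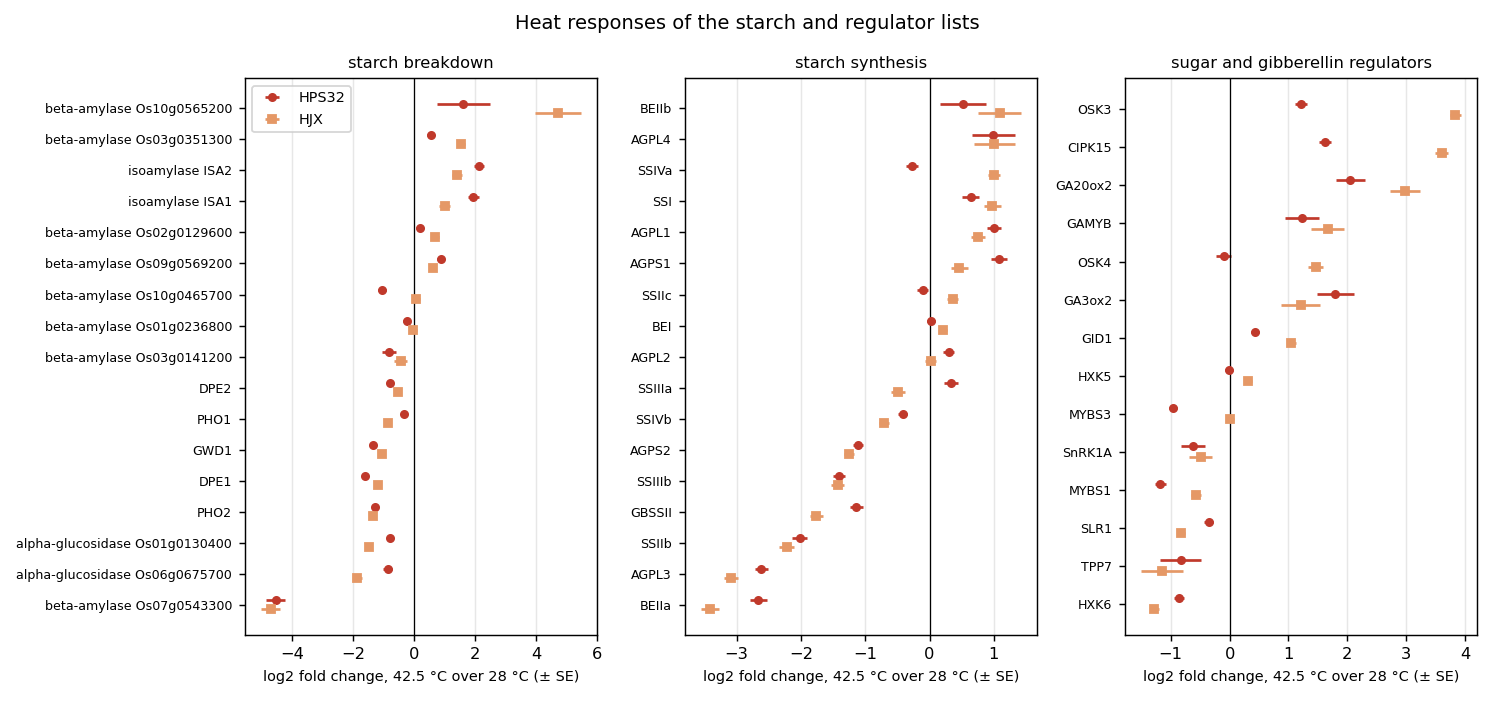
Log2 fold change of heat over 28 °C (± SE) in HPS32 (circles) and HJX (squares) for the tested genes of the 3 lists, sorted by the value in HJX. OSK3 and CIPK15 head the regulators at 3.84 and 3.61 in HJX and lie at 1.22 and 1.62 in HPS32, while starch breakdown and starch synthesis genes spread to both sides of 0.

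At 28 °C none of these 3 lists had a called gene between the lines (0 of 14 regulators, 0 of 17 starch breakdown genes and 0 of 17 starch synthesis genes), by edgeR (also when blocked by replicate number), DESeq2 or limma-voom. At an unadjusted edgeR p under 0.05 the counts were 0, 2 and 0. Of all tested genes 0.0864% were called there (22 genes, or 79 with the block).

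Genes with a pattern like that of RAmy3D were sought among 20957 genes whose average log2 CPM reached 1, by the root-mean-square distance between log2 CPM profiles over the 12 libraries after each was centred on its mean. A prior count of 2 was added before taking logs. The nearest was Os03g0638400, at a distance of 0.598, with means of 136 CPM in HPS32 and 432 CPM in HJX under heat and 0.237 CPM in HPS32 and 0.300 CPM in HJX at 28 °C. Next came Os07g0267200 at 0.810 and an unannotated transcript at 0.881. None of these carries a domain description. CIPK15 ranked 385th by this distance from RAmy3D, at 3.52. For RAmy3A, whose 9 libraries at 0 make its distances depend on that prior count, the nearest were another unannotated transcript at 0.460, the cupin gene Os08g0189200 at 0.476 and the 2OG-Fe(II) oxygenase gene Os05g0208550 at 0.652. Os08g0189200 averaged 17.9 CPM in HPS32 and 391 CPM in HJX under heat, against 19.5 CPM in HPS32 and 21.6 CPM in HJX at 28 °C, so it resembled RAmy3A in being high in HJX under heat alone. From RAmy3A, CIPK15 ranked 71st, at a distance of 1.18.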

How the data were processed

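Per the submitters' processing notes, the tools were HISAT2 2.0.5, featureCounts 1.5.0-p3 and DESeq2 1.20.0. The authors deposited raw read counts per gene, which were used as deposited, while the genome build and counting options are not given in the sources used here. The table's 12 FPKM columns were not used, since those of the heated plants cannot be matched to single samples. Column numbers of heated plants name no replicate in the titles, so these are called heat libraries 1 to 3.

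The tests used edgeR 4.0.16 in R 4.3.3: filterByExpr, TMM, a mean per group over all 12 libraries and a robust quasi-likelihood F test (two-sided), with Benjamini-Hochberg adjustment over 25473 genes and a threshold of 0.05. The SE is the log2 fold change divided by the square root of F. Other settings tried were no filter, CPM of at least 1 in 3 libraries, RLE or total-count scaling, DESeq2 1.42.0, limma-voom (limma 3.58.1), the compared groups alone, a replicate block and omission of each library. The pipeline was tested on simulated data. Poisson and binomial intervals and floors cover counting error only.

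The 4 genes, the lists and the tests were chosen with earlier results of these data known. Of 55 list genes, 4 were left out, 3 whose description lacked the wording required for the name and 1 not analysed here. The 3 are the isoamylase ISA3, the pullulanase PUL and GID2. Named genes are the 4, the family, the largest called rise and fall of each list with average log2 CPM at or above 0, and the 3 nearest profiles of RAmy3D and RAmy3A. Regulators of RAmy3D given beside them were named after their values were seen.

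Deviations of same-numbered 28 °C libraries from their group means correlated with r = 0.426, 0.113 and 0.403 (different numbers -0.431 to 0.0748) over genes averaging a log2 CPM of 1 or more. Over all tested genes they gave 0.289, 0.0756 and 0.275. The pairing was taken from the first set, a hint in the values that no label states.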

Additional observations from a re-analysis of the deposited data

Results flagged for a closer look

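The genes below outside the 4 had heat responses that differed between the lines by the interaction test (edgeR adjusted p under 0.05, as did 29.3% of all tested genes). Each value is the log2 heat response in HPS32 minus that in HJX. Among kinases, OSK3 differed by -2.62 ± 0.14, CIPK15 by -1.99 ± 0.15 and OSK4 by -1.56 ± 0.18. The MYB factors MYBS3 and MYBS1 differed by -0.97 ± 0.10 and -0.60 ± 0.12, and SLR1 (Os03g0707600), a repressor of gibberellin responses, by 0.47 ± 0.10. In the family, Os01g0715400 differed by -0.55 ± 0.11, Os06g0367100 by 1.01 ± 0.16 and ISA1 by 0.94 ± 0.25. In starch breakdown, the alpha-glucosidase Os06g0675700 differed by 1.00 ± 0.20 and the beta-amylase Os10g0465700 by -1.12 ± 0.18. In starch synthesis, SSIIIa (Os08g0191433) differed by 0.82 ± 0.15 and SSIVa by -1.27 ± 0.14. Of the other genes named above, the beta-amylase Os03g0351300 differed by -0.99 ± 0.18, BEIIa by 0.75 ± 0.19 and ISA2 by 0.73 ± 0.24. AGPS1 differed by 0.62 ± 0.18 and HXK6 by 0.42 ± 0.11. Further genes of the lists also passed this test and are not named here.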

How the results depend on the processing

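Under total-count scaling the median of all tested genes was 0.54 (heat, HPS32), 0.32 (heat, HJX), 0.28 (lines under heat) and 0.28 (interaction). With it RAmy3D was at 9.26 for heat in HPS32 and -2.49 for the lines under heat. In HPS32 under heat, starch breakdown then had 8 genes higher and 6 lower, starch synthesis 10 higher and regulators 3 lower, and in HJX 3 regulators were lower. Between the lines under heat 7 starch breakdown genes were higher, and the interaction called 2 starch breakdown genes lower and, of starch synthesis, 10 higher and 1 lower. OSK4 and Os06g0367100 turned to 0.46 and 0.058 for heat in HPS32, and BEI to 0.044 for the lines under heat. Starch synthesis genes lower in HPS32 than in HJX under heat numbered 5 with limma-voom and 5 with the compared groups alone, against 3. Genes called between the lines at 28 °C, 22 as reported, numbered 48 with DESeq2, 13 with limma-voom, 12 with the 28 °C groups alone and 79 with the replicate number as a block. The block was fitted for the 28 °C libraries alone, and with it no list gene was called there. Omitting 1 library gave 8 to 26 of these genes, 3 to 5 falling regulators in HJX, -2.71 to -1.87 for the interaction of RAmy3D and -0.023 to 0.076 for MYBS3 in HJX. The bounds of RAmy3A ran from 15.9 to 25.8 for heat in HJX and from 21.3 to 34.7 for the lines under heat. The causes were not tested. Depth limits RAmy3E and RAmy1A, which had too few reads for a test.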
